A study of Mus musculus with 6 samples.

Results

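The 9 genes described here are the matrix metalloproteinases (MMPs) Mmp2, Mmp3, Mmp11, Mmp14, Mmp19 and Mmp23 and the tissue inhibitors of metalloproteinases (TIMPs) Timp1, Timp2 and Timp3. They were taken by symbol from 20490 gene symbols present in all 6 tables of unique molecular identifier (UMI) counts. MMPs are zinc endopeptidases that are made as inactive proenzymes and that cut collagens, proteoglycans and other proteins of the extracellular matrix once their propeptide is removed. TIMPs bind the active site of these enzymes and block it. In the lung, fibroblasts (FBs) are a main source of both, and the balance between enzyme and inhibitor is one of the ways by which matrix is laid down or removed in fibrosis.

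The study sequenced single cells of mouse lung and of lung organoids by droplet scRNA-Seq. Each lung library came from cells of 3 mice that were pooled before capture. Each of the 6 conditions had 1 library, so no condition had a replicate. Lung FBs were isolated by FACS as GFP+ cells of reporter mice in which GFP marks cells that express Pdgfra (strain Pdgfra-GFP for the single dose, PDGFRa-EGFP for repeated doses). In the single-dose pair, mice received PBS (50 ul) or bleomycin by the oropharyngeal route and lungs were taken at day 14. The bleomycin dose of that library is given as 4 U/kg in its sample labels and as 2 U/kg in the study's protocol. In the repetitive pair, mice received PBS or bleomycin once a week for 3 weeks, the bleomycin doses being 1, 1 and 0.5 U/kg, and lungs were collected 14 days after the last dose. In the organoid pair, alveolar type II epithelial cells (AEC2s) carrying tomato, from tamoxifen-treated SpcCreER mice (SpcCreER × Rosa-td26 in the study's methods), were grown in Matrigel for 2 weeks with GFP+ FBs. The labels give an AEC2 to FB ratio of 10 to 1, while the cell numbers in the study's methods hold more FBs than AEC2s, and which of them applies to these libraries is not known. The FBs came from mice given PBS (normal FBs) or 2 U/kg bleomycin (fibrogenic FBs). The study's methods give 3 mice per condition as donors of these FBs and do not give the number of AEC2 donors. All conditions therefore share the reporter and the GFP sort of FBs, and cells without Pdgfra promoter activity were outside the sort by design.

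The tables held 1060 barcodes for single-dose PBS, 1015 for single-dose bleomycin, 6139 for repetitive PBS, 10737 for repetitive bleomycin, 5441 for organoids with normal FBs and 8894 for organoids with fibrogenic FBs. Median UMIs per barcode were 6780.5, 10711, 10178, 2478, 36841 and 4289.5 in the same order, and 43.7% of the repetitive bleomycin barcodes and 33.5% of the fibrogenic organoid barcodes held fewer than 2000 UMIs. The single-dose tables and the other tables list different sets of genes (30828 and 32285), so levels set across pairs are a description. The paired libraries shared 2, 28 and 13 barcode sequences. Cells were gated by marker genes, and the FB gate held 871, 777, 5267, 8818, 2249 and 4961 barcodes. Pdgfra stood between 305 and 588 CPM (UMIs of a gene per 1000000 UMIs of the group) in the 4 lung FB groups and at 75.7 and 70.9 CPM in the organoid FB groups. Epcam, an epithelial marker, was at or below 0.254 CPM in lung FBs and at 6.61 and 7.21 CPM in organoid FBs, while Ptprc, a leukocyte marker, ranged from 0.0399 to 5.14 CPM. With 1 library per condition there is no test between conditions. Intervals given here are exact 95% Poisson intervals or log2 intervals built from the same counts, and they cover counting error only, not the spread between animals.

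The promoters of Mmp3 and Timp1 are shown because contrasts of these members are described below, Mmp3 between FBs and epithelium and Timp1 between bleomycin and PBS. Mmp3 also differed between FB classes, though less widely than Mmp23. Each sequence is the 250 bases before the annotated RefSeq start on GRCm38.p6, read 5′ to 3′ on the strand of the gene. The Mmp3 stretch lies at chr9:7445572-7445821 (plus strand) and the Timp1 stretch at chrX:20869916-20870165 (plus strand). Capitals mark matches on either strand to any of 3 short motifs. The AP-1 element was searched as TGANTCA. The TATA box was searched as TATAAA. The GC box was searched as GGGCGG.
Mmp3: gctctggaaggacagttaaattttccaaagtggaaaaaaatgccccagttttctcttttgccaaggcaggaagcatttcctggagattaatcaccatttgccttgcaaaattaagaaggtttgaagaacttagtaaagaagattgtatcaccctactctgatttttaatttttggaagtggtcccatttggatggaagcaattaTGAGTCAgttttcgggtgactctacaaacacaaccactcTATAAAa
Timp1: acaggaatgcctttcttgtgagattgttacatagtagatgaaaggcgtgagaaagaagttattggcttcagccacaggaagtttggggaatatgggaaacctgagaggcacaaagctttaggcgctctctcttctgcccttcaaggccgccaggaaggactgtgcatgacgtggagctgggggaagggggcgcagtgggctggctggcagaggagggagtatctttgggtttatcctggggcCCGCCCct

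In the Mmp3 promoter an AP-1 match began 46 bases and a TATA match 7 bases upstream of the start, and no GC box match was found. In the Timp1 promoter a single GC box match, on the opposite strand, began 8 bases upstream. Of the 9 members, 7 had a promoter entry in the RefSeq table, Mmp23 with alternative starts. Mmp2 and Mmp19 had no entry. Mmp3 was the only 1 of these 7 members with an AP-1 match and the only 1 with a TATA match, against 6.75% and 12.4% of all 32851 promoters of the table. A GC box match was held by 5 of the 7 (Mmp11, Mmp14, Timp1, Timp2 and Timp3), against 32.7% of all promoters. A match is a run of letters, and its use in these cells was not measured. In the genome (GRCm38, GENCODE annotation) the members lie apart: Mmp2 at chr8:92827291-92853420, Mmp3 at chr9:7445822-7455975, Mmp14 at chr14:54431612-54445364, Mmp23 at chr4:155650655-155653384 and Timp2 at chr11:118301069-118355740. Chromosome 10 carries 3 members, Mmp11 at chr10:75923222-75936496, Mmp19 at chr10:128790910-128800824 and Timp3 at chr10:86300372-86349506. Timp1, at chrX:20870166-20874735, lies within Syn1 on the other strand without overlap of a Syn1 exon. Timp3 lies within Syn3 on the other strand, where an exon of Syn3 overlaps it, and Cell Ranger counts reads on the sense strand of a gene.

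After bleomycin the FBs held more Mmp2, Mmp14 and Timp1 RNA in both exposure schemes, and less Timp3. Mmp23 was above its control in both schemes, Timp2 stayed close to its control, and Mmp3 was above its control after repeated doses but short of the fold. A member was counted as past the fold when its log2 ratio of CPM, after adding 1 CPM to each level, was 1 or more in size. After a single dose 3 of the 9 members were past this fold upward and none downward, where 7.07% of the 10545 genes with at least 50 UMIs over both FB groups were past it upward and 3.31% downward. After repeated doses 4 of 9 were past it upward and none downward, against 6.7% and 1.85% of 15174 genes. The median log2 ratio of the members was 0.70 after a single dose and 0.69 after repeated doses, beside 0.07 and 0.11 for all genes with 50 UMIs. In the organoid FBs 0 of 9 members were past the fold between fibrogenic and normal origin, where 1.16% of 15983 genes were past it in either direction. Because the sums are over all gated FBs, more cells of a high class and more RNA per cell cannot be told apart in these values, and the values within FB classes follow further on.

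**Figure D1:**
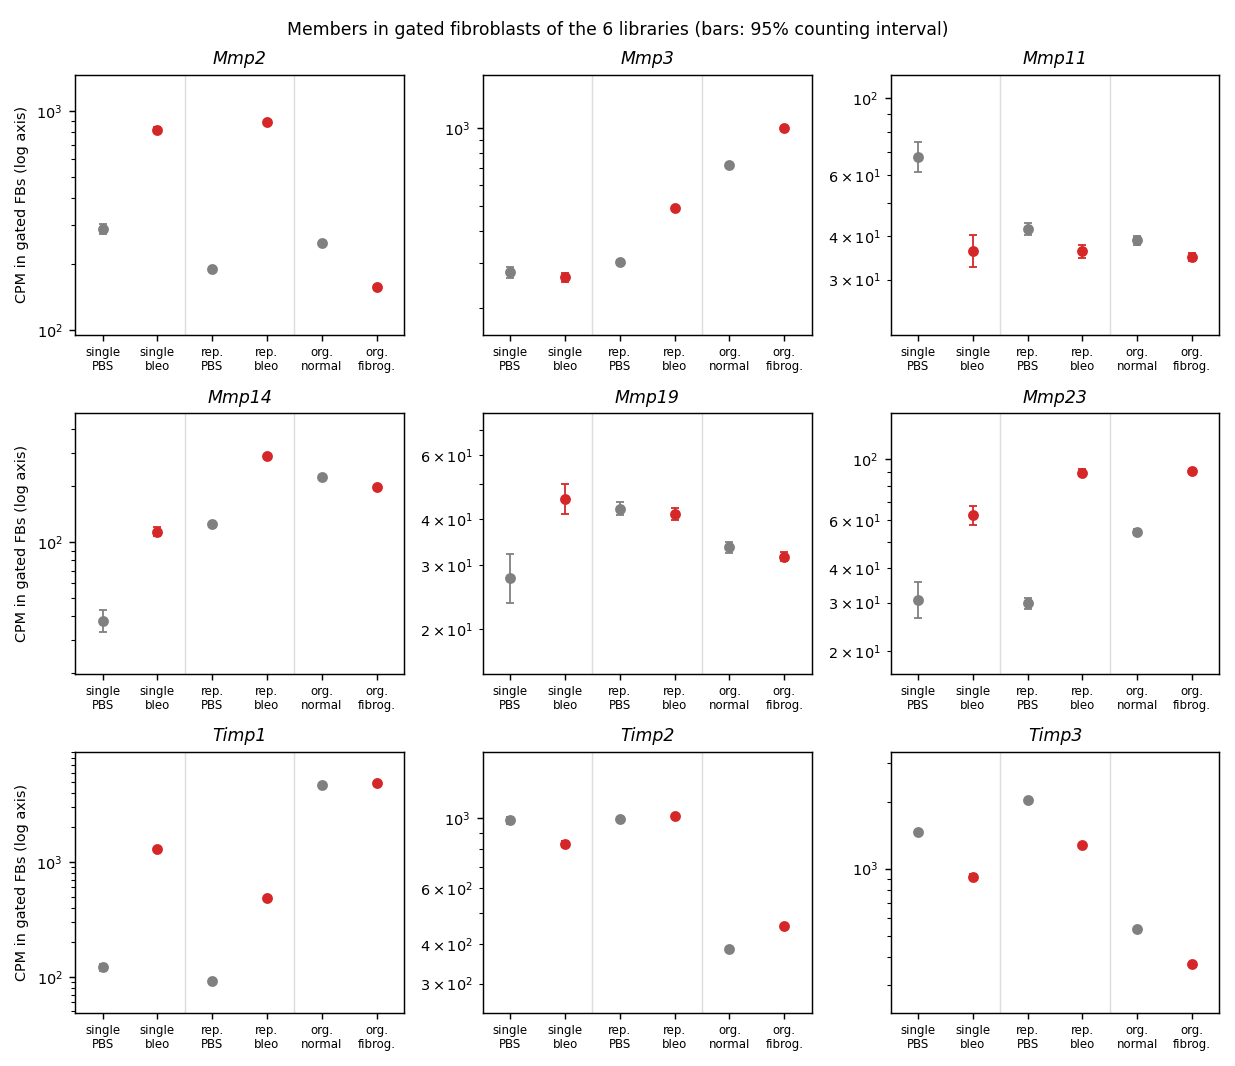
CPM (log scale) of each of the 9 members in the gated FBs of the 6 libraries, grey for PBS or normal FBs and red for bleomycin or fibrogenic FBs. Bars are 95% counting intervals, with 1 library per point. Mmp2, Mmp14 and Timp1 lie above their PBS library in both lung pairs, and Timp1 is highest in the organoid FBs, at 4688 and 4919 CPM.

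Mmp2, the gelatinase that cuts denatured collagen and basement membrane collagen and that is activated at the cell surface, stood at 289 CPM in single-dose PBS FBs and 820 CPM in single-dose bleomycin FBs (log2 ratio 1.50, 95% interval 1.43 to 1.58). In the repetitive pair it stood at 189 and 885 CPM (2.22, 2.19 to 2.25). Both bleomycin libraries were above both PBS libraries. In organoid FBs Mmp2 was 250 CPM with normal and 158 CPM with fibrogenic FBs, a log2 ratio of -0.66 and thus opposite in sign to the lung. The 10% of FB barcodes with the most Mmp2 UMIs held between 32.6% and 49.7% of them in the 4 lung libraries, and 576 of 871, 728 of 777, 3342 of 5267 and 6729 of 8818 FBs had a UMI of it.

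Mmp14, the membrane-type enzyme that cuts fibrillar collagen and activates pro-MMP2 together with TIMP2, stood at 37.8 and 114 CPM in the single-dose pair (1.56, 1.36 to 1.77) and at 124 and 287 CPM in the repetitive pair (1.20, 1.16 to 1.24). The repetitive PBS library was above the single-dose bleomycin library, so the groups overlap when the pairs are put together. In organoid FBs the levels were 223 and 198 CPM.

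Mmp3, a stromelysin with broad substrates that also activates other proMMPs, stood at 276 and 264 CPM in the single-dose pair, where the log2 interval (-0.16 to 0.02) included 0. In the repetitive pair the levels were 303 and 491 CPM, a log2 ratio of 0.69 (0.67 to 0.72) that stayed under the fold. The organoid FBs held 721 and 1000 CPM, the 2 highest levels of the 6. The Mmp3 UMIs lay in a part of the lung FBs: the top 10% of barcodes held 88.3%, 68.0%, 88.0% and 78.0% of its UMIs in the 4 lung libraries, and 649 of 871, 410 of 777, 3838 of 5267 and 5000 of 8818 FBs had none. Depth differs between these libraries, which moves the counts of FBs without a UMI.

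Mmp11, a stromelysin that is activated inside the cell by furin, was the member with the lowest ratio after a single dose, at 67.7 and 36.3 CPM (-0.88, -1.09 to -0.68). It differed less in the repetitive pair, at 41.9 and 36.2 CPM (-0.21), and stood at 38.9 and 34.8 CPM in organoid FBs. Mmp19, a secreted MMP of basement membrane substrates, was 27.7 and 45.5 CPM after a single dose (0.70) and 42.8 and 41.4 CPM after repeated doses, where the interval (-0.13 to 0.03) included 0. Over the 6 FB groups Mmp19 stayed within 27.7 to 45.5 CPM. Mmp23, a membrane-bound MMP without the usual haemopexin domain, was 30.7 and 62.4 CPM in the single-dose pair, at a log2 ratio that rounds to 1.00 but lies just under the fold. It was 29.8 and 89.3 CPM in the repetitive pair (1.55, 1.47 to 1.63) and 54.3 and 90.4 CPM in organoid FBs (0.72). An Mmp23 UMI was found in 94 of 871 and 753 of 5267 FBs of the PBS libraries and in 285 of 777 and 2437 of 8818 FBs of the bleomycin libraries. The top 10% of barcodes carried 96.7% and 86.9% of its UMIs in PBS and 53.5% and 67.6% in bleomycin. The first share rests on 181 UMIs in 94 barcodes, where the top 10% is 88 barcodes, and depth moves these counts as it does for Mmp3.

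Timp1, the soluble inhibitor that is induced by cytokines and growth factors in many cells, had the largest log2 ratio of the members over all gated FBs after a single dose. After repeated doses its ratio lay above that of Mmp2, but below it with 2 marker genes for the gate (2.23 against 2.24) and with the mean of single barcodes (1.89 against 2.18). Timp1 stood at 121 and 1294 CPM after a single dose (3.41, 3.30 to 3.52) and at 92.0 and 486 CPM after repeated doses (2.39, 2.35 to 2.43). Organoid FBs held far more, 4688 and 4919 CPM, with little between the origins (0.07). Timp2, the inhibitor that also takes part in activating pro-MMP2, was 985 and 829 CPM after a single dose (-0.25, -0.30 to -0.20), 993 and 1015 CPM after repeated doses (0.03, 0.02 to 0.05), and 387 and 457 CPM in organoid FBs. Timp3, the inhibitor that binds to the matrix, was lower after bleomycin by nearly the same log2 ratio in both schemes, at 1463 and 922 CPM after a single dose (-0.67) and 2033 and 1276 CPM after repeated doses (-0.67). In organoid FBs it was 537 and 371 CPM (-0.53), below all 4 lung FB groups.

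**Figure D2:**
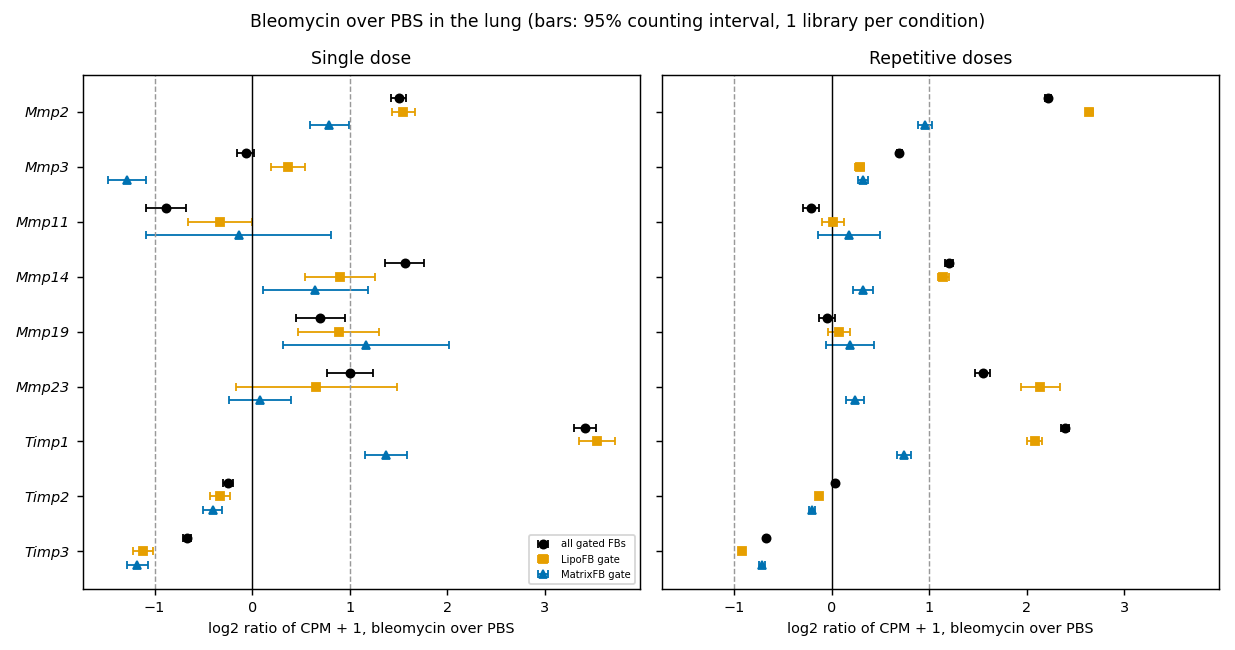
Log2 ratio of bleomycin over PBS CPM for each member after a single dose and after repeated doses, in all gated FBs (black circles), in the LipoFB gate (orange squares) and in the MatrixFB gate (blue triangles). Bars are 95% counting intervals and dashed lines mark log2 ratios of 1 and -1. Mmp3 in the MatrixFB gate lies at -1.29 after a single dose and at 0.32 after repeated doses.

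The sum of the 6 MMPs in FBs was 730 and 1342 CPM in the single-dose pair and 731 and 1830 CPM in the repetitive pair. The sum of the 3 TIMPs was 2569 and 3044 CPM and 3118 and 2777 CPM. The quotient of TIMP over MMP UMIs was accordingly 3.52 in PBS and 2.27 in bleomycin FBs after a single dose, and 4.26 and 1.52 after repeated doses. It is read between libraries or groups of cells only, since UMI counts of different genes are not on a common scale. It counts RNA, not protein or activity. These quotients are over all gated FBs, and groups within the FBs differed, as given further on. The make-up of the TIMP sum moved as well: Timp1 gave 4.70% and 42.5% of TIMP UMIs in the single-dose pair and 2.95% and 17.5% in the repetitive pair. In organoid FBs the quotient was 4.25 with normal and 3.80 with fibrogenic FBs, and Timp1 gave 83.5% and 85.6% of TIMP UMIs.

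FBs were split into classes by markers of lipofibroblasts (LipoFBs, the lipid-storing alveolar FBs), matrix FBs (MatrixFBs, the adventitial FBs with Pi16, Ly6a and Dpp4), injured FBs (Sfrp1, Ltbp2, Saa3), myofibroblasts (MyoFBs, with Cthrc1 and Postn) and airway-side FBs (Hhip, Aspn, Adh7). The classes are ranges of a marker score. Barcodes with 2 near-equal scores were kept apart as between classes, and there were 45, 173, 207 and 1469 of them in the 4 lung libraries. LipoFBs were 697 of 871 FBs in single-dose PBS and 141 of 777 in single-dose bleomycin, and 4306 of 5267 and 2644 of 8818 in the repetitive pair. MatrixFBs were 109, 132, 664 and 2309.

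Mmp3, Mmp23 and Timp2 were highest in MatrixFBs, and Mmp11 in LipoFBs, in each of the 4 lung libraries among classes of at least 50 barcodes. In single-dose bleomycin this place of Mmp3 rested on 1 MatrixFB barcode that held 123 of 345 UMIs. Without it the MatrixFB level was 224 CPM, below that of injured FBs. Mmp3 stood at 188 CPM in LipoFBs and 842 CPM in MatrixFBs of single-dose PBS and at 238 and 744 CPM in repetitive PBS. After bleomycin it was 242 and 344 CPM in the single-dose library, with injured FBs at 288 CPM, and 291 and 930 CPM in the repetitive library, with injured FBs at 477 CPM and MyoFBs at 75.1 CPM. The gap between LipoFBs and MatrixFBs was therefore smallest in the single-dose bleomycin library. Mmp23 showed the widest class difference: 5.48 against 194 CPM, 9.23 against 205 CPM, 4.77 against 240 CPM and 24.4 against 284 CPM for LipoFBs and MatrixFBs of the 4 libraries. Timp2 ranged from 643 to 847 CPM in LipoFBs and from 1676 to 2306 CPM in MatrixFBs. Mmp11 ran the other way, from 45.7 to 75.5 CPM in LipoFBs and from 19.0 to 22.0 CPM in MatrixFBs.

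**Figure D3:**
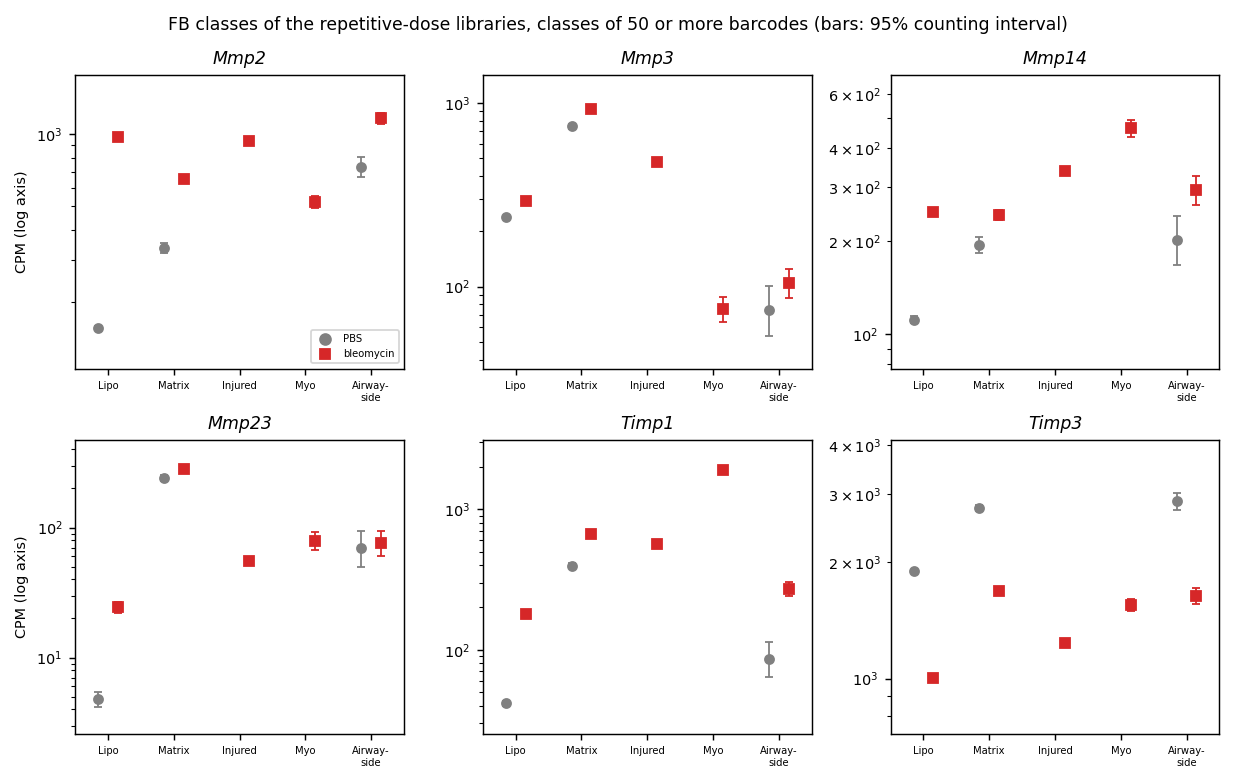
CPM of Mmp2, Mmp3, Mmp14, Mmp23, Timp1 and Timp3 in the FB classes of the repetitive PBS (grey) and repetitive bleomycin (red) libraries, for classes of at least 50 barcodes, with 95% counting intervals. Mmp3 and Mmp23 are highest in MatrixFBs of both libraries, and Timp1 is highest in MyoFBs of the bleomycin library.

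Mmp2, Mmp14 and Timp1 had their highest levels after bleomycin in injured FBs, MyoFBs or airway-side FBs. Timp3 was lowest in LipoFBs in each of the 4 lung libraries, at 1254, 578, 1897 and 1004 CPM against 2619, 1157, 2760 and 1682 CPM in MatrixFBs. Mmp19 differed little between these classes, from 24.9 to 46.8 CPM in LipoFBs and from 19.5 to 44.9 CPM in MatrixFBs. In repetitive bleomycin, Timp1 stood at 1915 CPM in the 178 MyoFBs, against 667 CPM in MatrixFBs, 570 CPM in injured FBs and 179 CPM in LipoFBs. A single MyoFB barcode held 726 of the 4106 Timp1 UMIs, and the level was 1626 CPM without it. Mmp14 was also highest in MyoFBs, at 464 CPM (428 CPM without its highest barcode), with injured FBs at 338 CPM. Mmp2 was 1169 CPM in airway-side FBs, 974 CPM in LipoFBs and 941 CPM in injured FBs, and lowest in MyoFBs at 520 CPM. In repetitive PBS Mmp2 was also highest in airway-side FBs, at 729 CPM, against 336 CPM in MatrixFBs and 155 CPM in LipoFBs. In single-dose bleomycin the 249 injured FBs held the highest levels of Mmp2 (955 CPM), Mmp14 (142 CPM) and Timp1 (1397 CPM) among classes of 50 barcodes. The 45 MyoFBs of that library were below this number and are not given.

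Within LipoFBs of the repetitive pair 4 of 9 members were past the fold upward, against 5.28% of 13591 genes. Mmp2 was 155 and 974 CPM (2.64), Mmp14 112 and 249 CPM (1.15), Mmp23 4.77 and 24.4 CPM (2.14) and Timp1 41.6 and 179 CPM (2.08). The LipoFB gate did not hold like cells in both libraries: the median LipoFB score was 0.287 in PBS and 0.173 in bleomycin, the median score on the injured FB markers 0.0230 and 0.0788, and the median depth 10789.5 and 2403.5 UMIs. Lymphoid barcodes of the same libraries listed Mmp23 at 5.37 and 13.1 CPM. The part of these values in the LipoFB ratios was not tested. Mmp3 in the same cells was 238 and 291 CPM (0.29), and Timp3 had a log2 ratio of -0.92. Within MatrixFBs of the repetitive pair 0 of 9 members were past the fold, against 4.04% of 11270 genes in either direction. This gate did not hold like cells either: the median MatrixFB score was 0.210 in PBS and 0.176 in bleomycin, the median injured FB score 0.0292 and 0.0504 and the median depth 7984 and 2183 UMIs, and the part of this in the ratios was not tested. Mmp2 came closest, at 336 and 652 CPM (0.96), and Timp1 was 398 and 667 CPM (0.74).

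In the single-dose pair fewer cells stood behind the class values. Of the 8 members with 50 UMIs in LipoFBs, 2 were past the fold upward and 1 downward, against 3.54% and 2.74% of 8280 genes. Here too the LipoFB gate did not hold like cells: the median score on the injured FB markers was 0.0353 in PBS and 0.0842 in bleomycin, with a median of 2 and 5 of the 8 markers held, and the median number of MyoFB markers held was 0 and 2. The part of this in the ratios was not tested. Mmp2 was 241 and 707 CPM (1.55), Timp1 61.4 and 720 CPM (3.53) and Timp3 1254 and 578 CPM (-1.12). A single bleomycin LipoFB barcode held 282 of 1092 Timp1 UMIs, and the level was 544 CPM without it. Of the 8 members with 50 UMIs in MatrixFBs, 2 were past the fold upward and 2 downward, against 3.77% and 3.06% of 4081 genes. Timp1 was 323 and 837 CPM (1.37), Mmp19 19.5 and 44.9 CPM (1.16, 0.31 to 2.02, from 13 and 45 UMIs, a sum past 50 only through the bleomycin library) and Timp3 2619 and 1157 CPM (-1.18). Mmp3 was 842 and 344 CPM (-1.29, -1.48 to -1.09), the reverse of its sign in MatrixFBs of the repetitive pair, at 744 and 930 CPM (0.32). Its highest barcodes held 124 and 123 UMIs in the single-dose pair. Without them the levels were 665 and 224 CPM and the log2 ratio -1.56.

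Cells outside the FB gate also carried member UMIs in the lung libraries, and the same cells carried UMIs of FB genes. In the repetitive libraries the median level of 10 FB genes (collagens, Dcn, Lum, Sparc, Pdgfra and Postn) in myeloid barcodes was 15.3% of their FB level in PBS and 11.1% in bleomycin. Mmp19 in myeloid barcodes was 24.1 CPM in the 108 barcodes of PBS and 326 CPM in the 292 barcodes of bleomycin, the second value being 788% of the FB level where the highest FB gene reached 16.2%. A single barcode held 115 of its 592 UMIs, and the level was 268 CPM without it. Timp2 in the same barcodes was 283 and 465 CPM and Mmp14 36.7 and 117 CPM. Lymphoid barcodes of repetitive PBS listed Mmp3 at 255 CPM, but 176 of the 190 UMIs lay in 1 barcode that also held 239 UMIs of FB markers, and the level was 19.7 CPM without it.

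In the organoids Mmp3, Mmp2 and Timp1 stood far higher in FBs than in the epithelium described further on. The normal and fibrogenic libraries had 469 and 1115 MyoFBs, 532 and 881 injured FBs, 128 and 210 MatrixFBs and 82 and 81 LipoFBs. There were 386 and 525 barcodes between classes, 400 and 773 cycling FBs and 250 and 1371 unclassed FBs, the last with medians of 1215 and 1293 UMIs. Median depth was 50429 and 4289 UMIs in MyoFBs, 41335.5 and 12090 in injured FBs, 42133.5 and 6326 in LipoFBs and 50628 and 48764.5 in MatrixFBs. The part of depth in the levels of these classes was not tested. These class names are blurred: the MatrixFB gate held a median of 4 and 3 of its 10 markers beside 5 and 4 of the 8 injured FB markers and 4 and 4.5 of the 8 MyoFB markers, and the LipoFB gate held 5 and 3 of its 12 markers. Timp1 was 6025 and 6271 CPM in MyoFBs and 1863 and 2655 CPM in LipoFBs. Mmp3 was lower in MyoFBs (534 and 817 CPM) than in injured FBs (805 and 1272 CPM). Timp3 showed the widest spread, at 1160 and 837 CPM in MyoFBs against 94.6 and 81.6 CPM in injured FBs, and the top 10% of FB barcodes held 92.7% and 96.1% of its UMIs. In MatrixFBs Timp3 was 805 and 430 CPM, and 499 and 273 CPM without 1 barcode of 2215 and 1 of 1580 UMIs. Organoid class gates rest on markers from lung, and Tcf21, a LipoFB transcription factor, was at 20.1 and 20.5 CPM in organoid FBs against 187 to 616 CPM in lung FBs.

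The organoid epithelium was examined for whether members were present beyond the RNA that FBs bring into epithelial barcodes. The epithelial gate held 2043 barcodes with normal FBs and 2346 with fibrogenic FBs. Mmp3 was 7.00 CPM with normal FBs and 20.1 CPM with fibrogenic FBs (log2 ratio 1.40, 1.27 to 1.53), and it was the 1 of 9 members past the fold, where 0.229% of 14825 genes were past it upward. Over the alternatives in processing the Mmp3 ratio ranged from 0.74 to 2.51. It fell under the fold over all barcodes and with a pseudocount of 10 CPM. A single barcode of the normal library held 88 of its 560 UMIs together with 666 UMIs of FB markers, and without the highest barcode of each library the levels were 5.91 and 19.5 CPM. Beside these values stands the FB RNA in the same barcodes: Col1a1 was 32.2 and 58.1 CPM in the epithelium. Epithelial Mmp3 was 0.971% (0.894 to 1.06) of its level in FBs of the same library with normal FBs and 2.00% (1.89 to 2.12) with fibrogenic FBs.

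The same percentage for the 10 FB genes had a median of 0.960% with normal FBs, in a range of 0.697% to 27.3%, and of 1.85% with fibrogenic FBs, in a range of 1.36% to 18.4%. Mmp3 over this median was 1.01 and 1.08. The quotient was 0.506 and 0.992 with barcodes of a second type kept, 1.34 and 1.51 with the mean of single barcodes, and 0.0356 and 0.109 over the highest FB gene in place of the median. At the median percentage, FB RNA would bring 6.92 and 18.5 CPM of Mmp3 into the epithelium, where 7.00 and 20.1 CPM were measured. Of these 10 genes, 9 are also markers of the FB gate, and barcodes with many FB markers had been left out of the epithelial gate. A set of 10 FB genes outside the gate list (Postn, Col5a1, Col5a2, Fbn1, Fstl1, Serpinf1, Lox, Thy1, Pcolce and Loxl1) shares Postn with the first set. Its medians were 1.40% and 2.22%, which give 10.1 and 22.2 CPM, above the measured Mmp3. Single FB genes did not move alike in the epithelium: Sparc was 664 and 760 CPM and Dcn 6.16 and 8.07 CPM, while Col6a1 was 30.4 and 15.7 CPM. The part of FB RNA in the Mmp3 difference between the libraries was not tested.

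**Figure D4:**
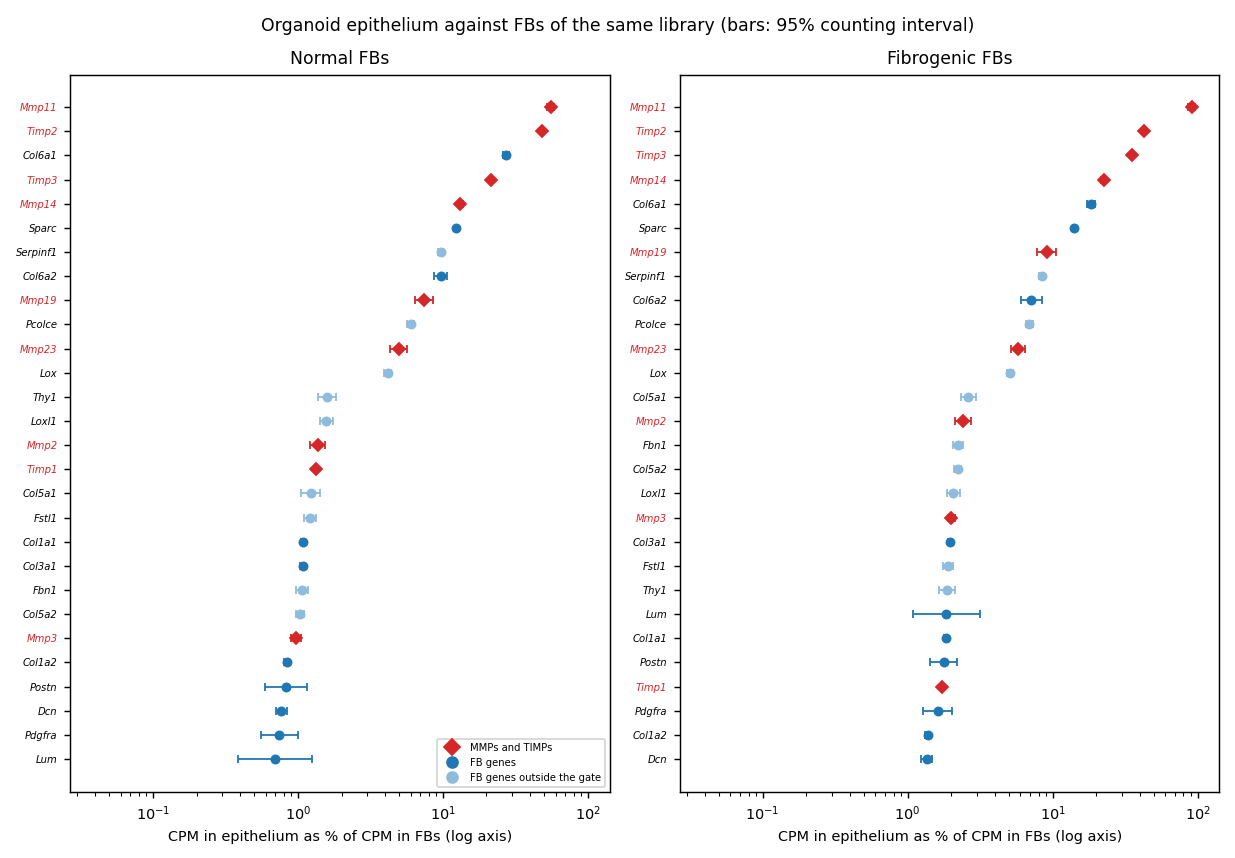
CPM in gated epithelium as a percentage of CPM in gated FBs of the same organoid library (log scale), for the 9 members (red diamonds), 10 FB genes (blue) and FB genes outside the gate list (light blue). Postn belongs to both sets and is drawn once, in blue. Mmp3 lies among the FB genes at 0.971% and 2.00%, while Mmp11 lies at 55.7% and 91.0%.

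The share of cells with a UMI moved in the same direction as the CPM. Mmp3 UMIs were found in 17.0% of epithelial barcodes with normal and 30.9% with fibrogenic FBs. After thinning each barcode to 2000 UMIs these shares were 1.48% and 6.29%, with 201 and 532 barcodes too shallow to enter. In FBs the shares were 59.2% and 65.6%, or 32.8% and 46.1% after thinning. Epithelial barcodes without any UMI of the 10 FB genes numbered 101 and 146 and were shallow, with medians of 1354 and 1502.5 UMIs. They held 4 and 18 Mmp3 UMIs, or 23.3 CPM (6.35 to 59.6) and 68.2 CPM (40.4 to 108), which are not below the levels of the other epithelial barcodes, 6.96 and 19.8 CPM. Timp1 in them was 99.0 and 307 CPM, against 62.6 and 83.9 CPM in the others. Timp3 was 192 and 34.1 CPM, against 115 and 132 CPM. At this depth 0 UMIs of the FB genes do not mark a barcode as free of FB RNA.

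Of the other members, Mmp11 and Timp2 stood above each of the 10 FB genes in the epithelium of both libraries, Mmp11 at 55.7% and 91.0% of its FB level and Timp2 at 48.4% and 42.9%. Timp3 was 21.4% and 35.4% and Mmp14 13.2% and 22.5%, above each FB gene with fibrogenic FBs and within their range with normal FBs. Timp1 (1.34% and 1.73%) and Mmp2 (1.37% and 2.40%) lay near the median of the FB genes. Mmp19 (7.38% and 9.09%) and Mmp23 (4.95% and 5.80%) lay within their range, whose top was Col6a1 at 27.3% and 18.4%. Over the median of the FB genes, Mmp19 was 7.69 and 4.92 and Mmp23 5.16 and 3.14. Between the libraries, epithelial Mmp11 was 21.7 and 31.7 CPM (0.53), Mmp14 29.4 and 44.5 CPM (0.58), Timp2 187 and 196 CPM (0.07) and Timp3 115 and 131 CPM (0.19). None of these passed the fold.

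The epithelial members followed the epithelial class. Classes were gated as AEC2 (Sftpc, Lamp3, Abca3), alveolar type I cells (AEC1s, with Hopx, Ager and Rtkn2), the transitional state termed PATS (Krt8, Cldn4, Sfn) and cycling cells, and held 1094, 232, 274 and 363 barcodes with normal FBs and 1209, 270, 496 and 223 with fibrogenic FBs, with 46 and 86 between classes. A barcode with at least 3 cycling markers was called cycling whatever its other scores. Cycling cells carried the AEC2 profile as well, with a median of 8 of the 8 AEC2 markers and median AEC2 scores of 0.244 and 0.208, beside 0.298 and 0.256 in AEC2s. Timp3 was 629 and 552 CPM in AEC1s against 46.0 and 51.2 CPM in AEC2s, with PATS cells at 114 and 134 CPM. Mmp11 was likewise highest in AEC1s, at 114 and 135 CPM, with PATS cells at 52.2 and 51.6 CPM and AEC2s at 4.80 and 8.41 CPM. Mmp14 was highest in PATS cells, at 136 and 134 CPM, followed by AEC1s at 82.0 and 90.0 CPM, with AEC2s at 6.08 and 9.78 CPM. Timp2 was 415 and 416 CPM in PATS cells, 334 and 339 CPM in AEC1s and 145 and 107 CPM in AEC2s. Mmp23 was also highest in AEC1s, at 16.7 and 20.1 CPM, with PATS cells at 2.73 and 5.56 CPM and AEC2s at 0.796 and 1.76 CPM. For each of these members the order of AEC1s, PATS cells and AEC2s was the same in both libraries.

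**Figure D5:**
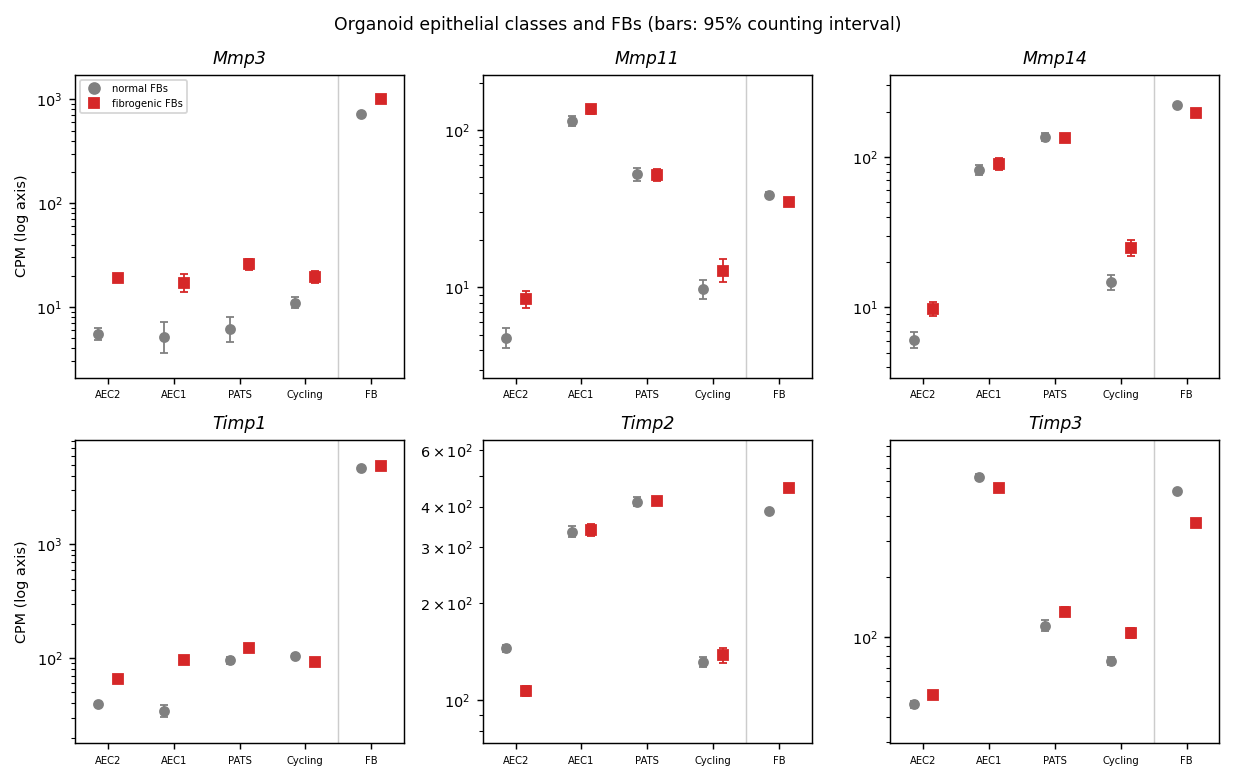
CPM (log scale) of Mmp3, Mmp11, Mmp14, Timp1, Timp2 and Timp3 in the epithelial classes and in the FBs of the organoid libraries with normal (grey) and fibrogenic (red) FBs, with 95% counting intervals. Timp3 and Mmp11 are highest among epithelial classes in AEC1s, Mmp14 and Timp2 in PATS cells.

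Mmp3 differed from these members in that it stood at like levels in all epithelial classes, from 5.15 to 11.0 CPM with normal FBs and from 17.2 to 25.7 CPM with fibrogenic FBs. The highest of the first range, cycling cells, was 7.05 CPM without 1 barcode that held 88 of 240 UMIs. Between the libraries Mmp3 was past the fold in AEC2s, at 5.48 and 18.9 CPM (1.62), as 1 of 9 members, against 0.457% of genes upward. In AEC1s Mmp3 (5.15 and 17.2 CPM, 1.56) and Timp1 (34.4 and 96.4 CPM, 1.46) were past it as 2 of 7 members with 50 UMIs, against 0.245% of genes. Of these, Mmp3 had 36 and 105 UMIs and reached 50 only through the fibrogenic library, so its place in this count supports nothing. In PATS cells Mmp3 was past it at 6.17 and 25.7 CPM (1.90), as 1 of 8, against 0.396%. The PATS gates differed in depth, with medians of 31428.5 UMIs with normal and 4643.5 UMIs with fibrogenic FBs. Of their barcodes, 54 and 146 were too shallow to thin, and the part of depth in this ratio was not tested. In cycling cells Mmp23 was past it, at 1.66 and 5.44 CPM (1.28), as 1 of 9 against 0.79%, while Mmp3 was not (0.77). Mmp23 had 36 UMIs with normal and 60 with fibrogenic FBs, reaching 50 only through the second library, where 15 of the 60 lay in 1 barcode, so its count supports nothing. Without the highest barcode of each gene in each library Mmp23 was 1.49 and 4.16 CPM (1.05, 0.60 to 1.51) and Mmp3, at 7.05 and 17.1 CPM (1.17, 0.89 to 1.45), was past the fold as well. Timp1 in AEC2s was 39.6 and 65.4 CPM, and the first value was 25.6 CPM without 1 barcode that held 586 of 1641 UMIs and 918 UMIs of FB markers.

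The genes most like each member over 37 groups of cells (library by gated class, at least 50 barcodes) were taken by Pearson r of log2(CPM + 1) among 7152 genes. The groups were FB classes, organoid epithelial classes, and endothelial, myeloid and lymphoid barcodes of the repetitive libraries. Differences between FBs and other cells therefore enter r, which is not a likeness among FB classes alone. The groups share libraries and depth, so r is a description. Mmp2 was most like Adamts2 (0.97), Fgfr1 (0.96) and Col16a1 (0.96), and Mmp3 most like Il6 (0.92), Spon2 (0.92) and Cygb (0.91), of which Spon2 was a marker of the injured FB gate. Mmp23 was most like Cd248 (0.91), Olfml2b (0.90) and Thbs2 (0.88), and Mmp14 most like Rassf8 (0.89), Copa (0.87) and Pxdn (0.87). Mmp19 was most like Dab2 (0.92), Lrp1 (0.90) and Tnfaip2 (0.89). Timp1 was most like Il11 (0.93), Ostc (0.93) and Tmem167 (0.93), Timp2 most like Adamtsl5 (0.90), Sept8 (0.90) and Ecm1 (0.89), and Timp3 most like Dnm1 (0.86), Nbl1 (0.85) and Pmp22 (0.83). Mmp11 had the weakest likeness, with Cryab (0.77), Snap47 (0.76) and Tspan17 (0.75).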

How the data were processed

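The deposited tables hold raw UMI counts per gene and barcode, and the authors made them with Cell Ranger 3.0.1 on mm10, with Seurat 3 also named in the submitters' processing notes. The single-dose libraries used a 10x 3′ kit. The study's methods name GRCm38 with a GENCODE annotation and do not limit it to some libraries, but the other tables list another set of genes than the single-dose tables, so it is not known whether that annotation was used for them. The authors' cell filters before deposit are likewise not given for every library, and no count was normalised in the tables. Depth per library is given with the results.

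All barcodes were scored on marker lists, as the mean of each marker's CPM-based level. Levels were scaled over both libraries of a pair and capped at the 99.5 percentile. A barcode entered the gate of its highest score when it held at least 3 of that list's markers. No doublet caller was run. Barcodes whose second score was 0.5 or more of the first were treated as holding cells of more than one type and left out (40, 51, 66, 427, 342 and 814 in the 6 libraries). After that, barcodes were left out whose mitochondrial share lay more than 3 scaled median absolute deviations above the median of their type and library. FB and epithelial classes were gated by highest score too, with a second score of 0.8 or more of the first placing a barcode between classes, except that any barcode with at least 3 cycling markers was called cycling.

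UMIs were summed per gate and divided by the total UMIs of the gate (CPM). Each condition had 1 library, so no test was run and no p-value is given. Ratios are log2 ratios of CPM + 1, read against all genes with at least 50 UMIs over both groups, and groups under 50 barcodes were not described. All 9 members are named in the 3 comparisons of all FBs and in that of the epithelium, and within classes those past the fold and some others. From the lists of other MMPs and of partners the 3 highest and 3 lowest ratios are named, except 1 gene that is not reported here, and likeness was taken among genes of at least 50 CPM. The members, marker lists and gene lists were chosen with earlier results of these data known. Alternatives were 2 or 5 marker genes, second types kept, no mitochondrial filter, barcodes of at least 2000 UMIs, the mean of single barcodes, no gate, CPM without mitochondrial and ribosomal genes, centring on the median gene, pseudocounts of 0.1 and 10 CPM, and a 50 UMI minimum for members. The log2 ratios, their intervals and the call past the fold were tested on simulated sums of counts. Gates were not tested on simulated cells. Python 3.11.15, numpy 2.4.6, scipy 1.17.1 and matplotlib 3.10.9 were used.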

Additional observations from a re-analysis of the deposited data

Results flagged for a closer look

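The log2 ratio of Timp2 in FBs was -0.25 after single-dose bleomycin and 0.032 after repetitive bleomycin, so the exposure schemes differed in sign. The second value became -0.08 when centred on the median gene. The log2 ratio of Mmp3 in MatrixFBs was -1.29 after a single dose and 0.32 after repeated doses, again with opposite signs, and -1.56 and 0.34 without the barcode with the most Mmp3 UMIs in each library. With 1 library per condition neither difference between schemes was tested.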

How the results depend on the processing

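No paired analysis was possible because each condition had 1 library, and for the same reason no replicate could be left out. Of the 12 alternatives 3, the pseudocounts and the 50 UMI minimum, cannot turn a sign. Over the other 9 the members kept the sign of their log2 ratio in 80 of 81 values after a single dose, 78 of 81 after repeated doses, 77 of 81 in organoid FBs and 75 of 81 in organoid epithelium, and no member past the fold changed sign. The counts of members past the fold in the 3 FB comparisons stayed within 1.5 times their value. Mmp23 after a single dose was past the fold in 6 of 12 alternatives (0.83 to 1.27). In organoid epithelium the count of 1 member became 3 with the mean of single barcodes, 0 over all barcodes and 0 with a pseudocount of 10 CPM, and the Mmp3 ratio ranged from 0.74 to 2.51. Epithelial Mmp3 over the median of the FB genes was 1.01 with normal FBs. It became 0.506 with second types kept, 1.34 with the mean of single barcodes and 0.0356 against the highest FB gene. With fibrogenic FBs it was 1.08 and became 1.01 with 5 marker genes, 0.992 with second types kept, 1.02 in barcodes of at least 2000 UMIs, 1.51 with the mean of single barcodes and 0.109 against the highest FB gene. With FB genes outside the gate, an alternative chosen after seeing the data, it was 0.693 and 0.902. The causes were not tested. In barcodes with 0 UMIs of the FB genes no such value can be formed, and their Mmp3 levels stand in the report. Values without single barcodes were also added after seeing the data, and the Mmp3 ratio in epithelium was then 1.57 and Timp1 in epithelium with normal FBs 50.6 CPM in place of 62.7 CPM. Of the LipoFB and MatrixFB gates of the single-dose pair, 3 held 109 to 141 barcodes.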

Other observations

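Of 18 further MMP and TIMP genes, 17 were in all tables, and 1, 9 and 11 of them had 50 UMIs in FBs of the single-dose, repetitive and organoid pairs. After a single dose this was Mmp8, the neutrophil collagenase, at 2.38 and 25.4 CPM (log2 ratio 2.97, from 14 and 237 UMIs). After repeated doses 9 did and 4 of them were past the fold upward, beside 6.7% of all 15174 genes. Mmp10, a stromelysin, had a log2 ratio of 2.78 from 2 and 362 UMIs, of which 244 lay in 1 barcode, and its bleomycin level of 6.12 CPM was 2.00 CPM without it. Mmp8 (1.90) and Mmp12, the macrophage elastase (1.79, from 2 and 153 UMIs, 52 of them in 1 barcode), were next. Mmp28 was the fourth (1.05, from 9 and 82 UMIs). Mmp10, Mmp12 and Mmp28, and Mmp8 after a single dose, reached 50 UMIs only through the bleomycin library, so their counts past the fold support nothing. The lowest were Mmp27 (0.32), Mmp17 (0.30) and Mmp15 (0.28). Mmp12 in myeloid barcodes was 118 and 441 CPM in repetitive PBS and bleomycin, and Mmp9, the other gelatinase, 141 and 32.5 CPM. In organoid FBs 0 of 11 were past the fold, beside 1.16% of all genes in either direction. The ratios ran from Mmp13 (0.34), Mmp10 (0.21) and Mmp17 (0.16) down to Mmp8 (-0.20), Mmp12 (-0.27) and Mmp9 (-0.76). In organoid epithelium 3 had 50 UMIs and none was past the fold, Mmp10 (0.96), Mmp13 (0.55) and Mmp15 (0.26), beside 0.229% of all genes upward. Mmp10 had 34 and 109 UMIs there (0.425 and 1.78 CPM), against 53.0 and 61.2 CPM in FBs of the same libraries. Mmp13 had 15 and 45 UMIs (0.187 and 0.735 CPM), against 19.0 and 24.4 CPM in FBs. The part of FB RNA in these ratios was not tested. Mmp15, a membrane-type MMP, was 77.5 CPM in PATS cells, 40.4 CPM in AEC2s and 34.7 CPM in AEC1s with normal FBs.

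Among 18 activators, inhibitors and partners of MMPs, 6 of the 16 with 50 UMIs were past the fold upward in FBs after a single dose and 3 of 18 after repeated doses, and none was past it downward, beside 7.07% and 6.7% of all genes upward. After a single dose 3 of the 6, Lcn2, Plaur and Tfpi2, had 35, 14 and 41 UMIs in PBS and reached 50 only through the bleomycin library. Their place in the single-dose count therefore supports nothing. Lcn2, which binds MMP9, was highest in both (4.49 and 3.96), followed by Plaur, the urokinase receptor (2.65 and 1.78), and Tfpi2, a protease inhibitor (2.39 and 1.31). The lowest were Spock2 (0.09), Bsg (0.05) and Reck (-0.77) after a single dose and Itgav (-0.05), Spock2 (-0.16) and Reck (-0.38) after repeated doses. Reck, a membrane-anchored inhibitor of MMPs, was thus the lowest of the list in both. In organoid FBs 1 of 18 was past the fold, beside 1.16% of all genes in either direction. It was Pcsk5, a proprotein convertase, at 227 CPM with normal and 74.0 CPM with fibrogenic FBs (-1.60). A2m (0.43) and Plaur (0.40) were among the highest, and Lcn2 (-0.43) and Tfpi2 (-0.49) also among the lowest. Lcn2 stood at 240 and 178 CPM in these FBs, against 4634 and 3989 CPM in the epithelium of the same libraries. The part of epithelial RNA in its FB ratio was not tested. In organoid epithelium 1 of 17 was past the fold, beside 0.229% of all genes upward: Plat, tissue plasminogen activator, at 4.84 and 12.9 CPM (1.26). Lrp1 (0.52) and Plaur (0.40) followed, and Pcsk5 (-0.52) and Pcsk6 (-0.81) were lowest. Lrp1 was 6.33 and 9.49 CPM and Pcsk5 1.72 and 0.898 CPM in the epithelium. FBs of the same libraries held 504 and 489 CPM of Lrp1 and 63.1 and 73.6 CPM of Plat, and Pcsk5 at the levels given above. The part of FB RNA in these epithelial ratios was not tested.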
